A study of Mus musculus with 24 samples.

Results

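The mRNAs of 9 enzymes of methionine and one-carbon metabolism were followed in mouse liver, and each was found by its gene symbol among the 25746 genes counted. The 9 genes were Mat1a, Gnmt, Ahcy, Bhmt, Cbs, Cth, Mtr, Shmt1 and Pemt, and all 9 passed the filter on low counts that left 12330 genes for testing. The mice lacked or carried the cluster of major urinary protein (Mup) genes, which encode small lipocalins that the liver secretes in far larger amounts in males than in females. The groups were male wild-type (mWT), male knockout (mKO), female wild-type (fWT) and female knockout (fKO), with 6 mice of 12 weeks and 1 liver RNAseq library per mouse in each. All mice were of a C57BL/6N background, ate standard chow, were fasted for some hours and were scanned under isoflurane just before death, so that these conditions were common to all 24 livers. The deletion was made with CRISPR/Cas9, was homozygous and present in every cell from the zygote on, and came from a single male founder, so that the knockout mice represent 1 deletion event.

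The methionine cycle makes and recycles the methyl donor of the cell. Methionine adenosyltransferase joins methionine and ATP to S-adenosylmethionine (SAM), methyltransferases hand its methyl group to glycine, phospholipids and many other acceptors, and the product S-adenosylhomocysteine is split to homocysteine. Homocysteine is either remethylated to methionine, with betaine or with methyl-folate as the donor, or leaves the cycle through transsulfuration to cystathionine and cysteine, the precursor of glutathione and taurine. The liver is the main site of this metabolism in the body, and Mat1a, Gnmt and Bhmt are genes typical of the differentiated hepatocyte.

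The sequences next to the start sites of 4 members are given first, because their variation from mouse to mouse is described further on. Ahcy varied together with Mat1a and Gnmt together with Bhmt. Mtr and Pemt deviated in opposite directions and passed the test by rank only, as did Gnmt with Ahcy and with Shmt1 in the same direction. Each is the stretch of 250 bases before the RefSeq start site, on the minus strand of GRCm38.p6, written 5′ to 3′. Capitals mark matches, on either strand, to the letters of a CCAAT box (CCAAT), a GC box (GGGCGG), a nuclear receptor half-site (AGGTCA) or a STAT5 element (TTCNNNGAA).
Ahcy (chr2:155074498-155074747): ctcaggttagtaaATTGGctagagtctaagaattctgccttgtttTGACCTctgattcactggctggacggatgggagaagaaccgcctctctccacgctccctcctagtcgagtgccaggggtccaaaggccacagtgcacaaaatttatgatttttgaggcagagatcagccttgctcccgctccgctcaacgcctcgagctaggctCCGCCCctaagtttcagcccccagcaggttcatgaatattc
Gnmt (chr17:46729166-46729415): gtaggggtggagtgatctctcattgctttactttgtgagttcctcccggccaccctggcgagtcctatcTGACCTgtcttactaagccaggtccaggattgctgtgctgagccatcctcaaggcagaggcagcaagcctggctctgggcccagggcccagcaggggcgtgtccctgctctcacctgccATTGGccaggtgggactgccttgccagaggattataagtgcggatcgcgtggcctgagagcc
Mtr (chr13:12258114-12258363): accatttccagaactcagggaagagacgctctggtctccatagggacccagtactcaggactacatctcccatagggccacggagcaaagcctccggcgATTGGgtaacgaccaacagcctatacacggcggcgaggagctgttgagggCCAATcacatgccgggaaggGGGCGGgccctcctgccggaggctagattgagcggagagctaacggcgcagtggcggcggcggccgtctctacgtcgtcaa
Pemt (chr11:60040189-60040438): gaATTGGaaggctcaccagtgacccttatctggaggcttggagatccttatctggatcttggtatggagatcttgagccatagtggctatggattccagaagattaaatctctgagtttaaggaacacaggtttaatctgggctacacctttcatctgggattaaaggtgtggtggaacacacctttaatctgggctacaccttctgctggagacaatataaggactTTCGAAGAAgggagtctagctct
The Mtr stretch held 20 CpG dinucleotides and 62.0% G and C, against 1 CpG and 44.8% in that of Pemt, 9 and 52.8% in that of Ahcy and 6 and 60.4% in that of Gnmt. Over 32851 mouse promoters of the same length the medians were 6 CpG dinucleotides and 52.4%. CCAAT was found in all 4 stretches and in 33.8% of all promoters. GGGCGG was found in those of Ahcy and Mtr and in 32.7% of all promoters. AGGTCA was found in those of Ahcy and Gnmt and in 14% of all promoters. TTCNNNGAA was found only in that of Pemt among the 4, at 23 to 15 bases before the start, and in 7.02% of all promoters. No matches overlapped each other, and the letters of a TATA box (TATAAA), an E-box (CACGTG), an HNF4A element (CAAAGTCCA) and a glucocorticoid receptor half-site (AGAACA) were searched for and were not in these 4 stretches, while 12.4%, 6.02%, 0.384% and 16.1% of all promoters held them. None of these letters shows binding of a factor, and a second RefSeq start of Pemt, with the stretch chr11:60037006-60037255 before it, held none of them. RefSeq promoter windows were matched for 7 of the 9 members.

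The libraries held 15361901 to 26261394 counted reads. The sum of the 22 Mup genes was 26683 ± 6691 CPM (counts scaled to library size; SD, n = 6) in mWT and 4044 ± 636 CPM in fWT, and it did not exceed 0.457 CPM in any KO library. The Y-linked gene Ddx3y was at 78.9 to 115 CPM in the 12 males and at 0 in the 12 females. The hepatocyte markers Alb, Apoa1, Ttr and Trf summed to 90037 to 153172 CPM over the 24 libraries. No 2 mice of a group agreed within sampling noise, the lowest chi-square per gene being 8.07 among 60 pairs.

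The members covered a wide range of levels, given here in TPM. This is the share of a gene after counts are divided by the summed length of all its annotated exons. That length can exceed the transcript present in liver, and the order of genes by TPM depends on it. Mat1a, which encodes the liver form of methionine adenosyltransferase, was the highest with a level of 3188 ± 855 TPM (SD, n = 24 mice), and it stood 40th among all genes by mean TPM. Gnmt, whose product methylates glycine and so uses up SAM, had a level of 1784 ± 295 TPM, which was below that of Mat1a in 24 of 24 mice. Bhmt, the betaine-homocysteine methyltransferase, had a level of 702 ± 200 TPM and Ahcy, the adenosylhomocysteinase, a level of 617 ± 91.6 TPM, and their order was not fixed. Bhmt was above Ahcy in 10 of 12 males and in 3 of 12 females. By mean CPM, without lengths, Bhmt (5758 exon bases) was at 1554 and Gnmt (1206 exon bases) at 824, the reverse of their order by TPM.

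The transsulfuration enzymes differed from each other in level. Cth, cystathionine gamma-lyase, had a level of 446 ± 96.0 TPM and Cbs, cystathionine beta-synthase, a level of 117 ± 29.6 TPM. Between them lay Pemt, which makes phosphatidylcholine from phosphatidylethanolamine with SAM, at 301 ± 41.1 TPM, and Shmt1, the cytosolic serine hydroxymethyltransferase that loads folate with one-carbon units, at 153 ± 32.2 TPM. Reads of Shmt1 could also come from Smcr8, which overlaps its exons on the opposite strand. The ranges of Shmt1 and Cbs overlapped, with Shmt1 the higher in 19 of 24 mice, whereas Pemt was above Shmt1 in all 24. By mean CPM, without lengths, Cbs (7485 exon bases) was at 335, above Pemt at 242 and Shmt1 at 227. It was below Cth at 476. Mtr, the methionine synthase that uses methyl-folate, was far below the rest at 4.44 ± 0.539 TPM. The level of Bhmt relative to Mtr within a liver was 73.8 to 256 on the TPM scale. Mat2a, the gene of the methionine adenosyltransferase found outside the liver, was also low, and the group medians of the ratio of Mat1a to Mat2a on the TPM scale were 60.1 in mWT, 67.3 in mKO, 104 in fWT and 93.3 in fKO. Together the 9 members took 0.791% ± 0.117 of all counted reads in mWT, 0.802% ± 0.0863 in mKO, 0.930% ± 0.122 in fWT and 0.902% ± 0.177 in fKO (SD, n = 6).

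**Figure D1:**
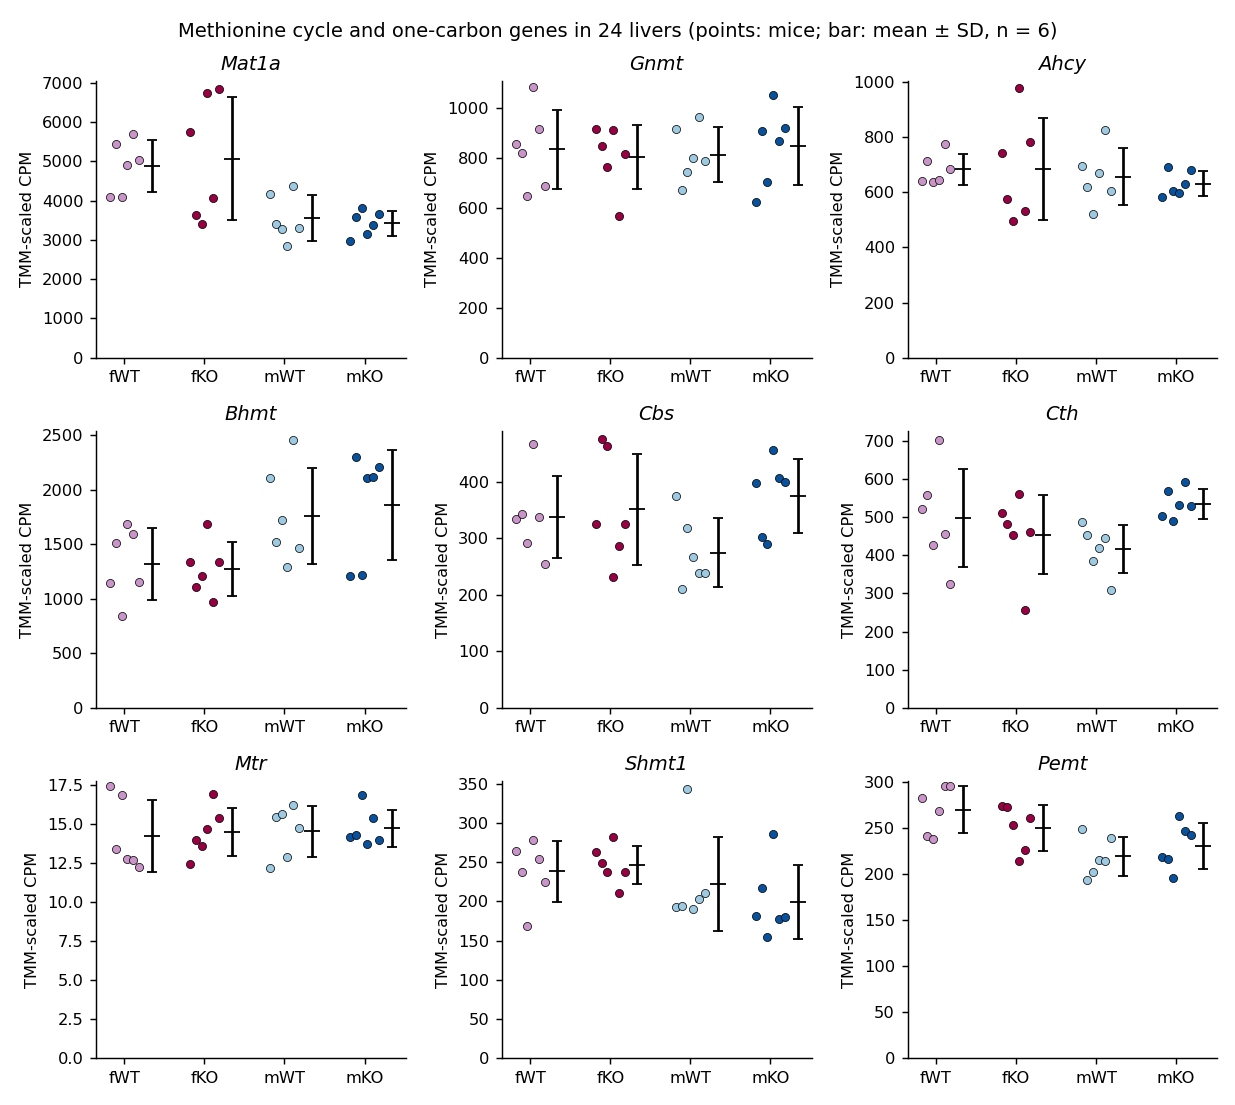
TMM-scaled CPM (vertical axes, from 0) of the 9 members in the 4 groups (horizontal axes), where each point is a mouse and the bar gives mean ± SD (n = 6). Mat1a was lower in males than in females of both genotypes, Cth did not overlap between mKO and mWT, and 1 mWT mouse stood apart for Shmt1 at 344 CPM.

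From here on, levels of a single gene are given as CPM scaled by TMM, which corrects for library size and composition but not for gene length, and differences as log2 fold changes with SE. A gene was called changed at an adjusted p under 0.05 over all 12330 genes in edgeR's quasi-likelihood test.

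None of the 9 members passed this test for loss of the Mup cluster. In males 0 of 9 were called, while 0.211% of all genes tested were called and 26 in number. At the unadjusted cut-off of p under 0.01 used in the study, again 0 of 9 members passed, against 3.52% of all genes, and at p under 0.05 the members Cbs and Cth passed, against 10.6% of all genes. In females 0 of 9 were called, against 0.0892% of all genes, and none reached an unadjusted p under 0.05, against 4.87%. DESeq2 called 0 of 9 members in either sex. The median log2 fold change of the members was 0.058 in males and 0.0024 in females, and that of all genes was -0.0021 and -0.0026.

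Mat1a, which makes SAM, Gnmt, which uses it on glycine, and Ahcy, which removes the product, had fitted log2 fold changes within 0.06 of 0 in both sexes. Mat1a (ENSMUSG00000037798, chr14:41105035-41124412) had a log2 fold change of -0.057 ± 0.152 in males (95% CI -0.37 to 0.26) and of 0.055 ± 0.152 in females (95% CI -0.26 to 0.37). For Gnmt (ENSMUSG00000002769, chr17:46725664-46729168) the values were 0.058 ± 0.134 in males and -0.055 ± 0.134 in females. Ahcy (ENSMUSG00000027597, chr2:155059310-155074497) gave -0.059 ± 0.127 in males and 0.0024 ± 0.127 in females. The KO and WT mice of each sex overlapped for all 3 genes. Ahcy shares a stretch of 2086 bases at 99.7% identity with Gm4737, counted at a mean of 0.271 CPM. How reads that match both were counted is not given, so reads of Ahcy may have been split or lost. In fKO the 6 livers fell apart for Mat1a, however: mice 2, 3 and 5 were at 3403 to 4059 CPM and mice 1, 4 and 6 at 5740 to 6851 CPM, and the coefficient of variation was 31.0%, against 16.4% in mWT, 9.33% in mKO and 13.7% in fWT. Ahcy split the same mice, with 497 to 576 CPM in the first 3 and 742 to 980 CPM in the others.

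Neither gene of the remethylation routes passed the test for genotype. Bhmt (ENSMUSG00000074768, chr13:93616675-93637961) had a log2 fold change of 0.079 ± 0.196 in males and of -0.051 ± 0.196 in females. A stretch of 1869 bases of Bhmt is 99.4% identical to Gm5096, which was counted at 1.89 CPM. The mKO values of Bhmt fell into a lower pair, mice 1 and 3 at 1209 and 1219 CPM, and a higher set of 4 mice at 2106 to 2302 CPM, whereas the mWT mice spread from 1296 to 2457 CPM without such a gap. Mtr (ENSMUSG00000021311, chr13:12182712-12258113) had the lowest coefficient of variation of the 9 over all mice, 11.1%, and its 24 values lay between 12.2 and 17.5 CPM. Within single groups this coefficient was lower for Pemt than for Mtr in mWT (9.77% against 11.2%), fWT (9.48% against 16.2%) and fKO (9.94% against 10.7%). In mKO it was higher for Pemt (10.8% against 8.10%). The log2 fold change of Mtr was 0.021 ± 0.0989 in males and 0.027 ± 0.0979 in females.

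The transsulfuration genes had the largest differences of the 9 in males, and neither was called. Cbs (ENSMUSG00000024039, chr17:31608894-31637238) was at 211, 253 and 374 CPM (lowest, median and highest of 6) in mWT and at 289, 398 and 456 CPM in mKO. The groups overlapped, but all 6 mKO mice were above the mWT median. The log2 fold change of Cbs was 0.45 ± 0.175 (95% CI 0.089 to 0.81, unadjusted p = 0.0169, edgeR adjusted p = 0.340). In females Cbs was at 254, 336 and 467 CPM in fWT and at 231, 325 and 476 CPM in fKO, with nearly the same range in both.

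Cth (ENSMUSG00000028179, chr3:157894248-157925077) was at 308, 433 and 488 CPM in mWT and at 489, 530 and 592 CPM in mKO, so that every mKO mouse was above every mWT mouse, with the nearest pair almost touching. Such a separation upwards was seen for 0.584% of all genes tested in this comparison, or 72 genes. The log2 fold change was 0.36 ± 0.159 (95% CI 0.035 to 0.69, unadjusted p = 0.0317, edgeR adjusted p = 0.411), which did not pass the test. In females Cth was at 324, 489 and 704 CPM in fWT and at 257, 472 and 560 CPM in fKO, with the log2 fold change at -0.13 ± 0.158. The lowest fKO mouse, mouse 5 at 257 CPM, was far from the next at 454 CPM, and without it the value in females was -0.012. The difference between the sexes in the effect of the deletion was 0.49 ± 0.224 for Cth (unadjusted p = 0.0369, edgeR adjusted p = 0.823) and 0.39 ± 0.247 for Cbs (adjusted p = 0.880). For that difference 0 of 9 members were called, against 0.00811% of all genes, 1 member had an unadjusted p under 0.05, against 5.96% of all genes, and DESeq2 called 0 of 9.

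Shmt1 and Pemt, the folate-loading enzyme and the phospholipid methyltransferase, did not pass the test for genotype. Shmt1 (ENSMUSG00000020534, chr11:60788104-60811718) was at 190 to 210 CPM in 5 of the 6 mWT mice and at 344 CPM in mouse 3. In mKO it was at 154, 181 and 286 CPM. The log2 fold change in males was -0.16 ± 0.150 with mouse 3 of mWT and 0.010 without it, and in females it was 0.050 ± 0.150. Pemt (ENSMUSG00000000301, chr11:59970614-60046489) had 0.072 ± 0.0848 in males and -0.11 ± 0.0847 in females, with overlapping groups in both.

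**Figure D2:**
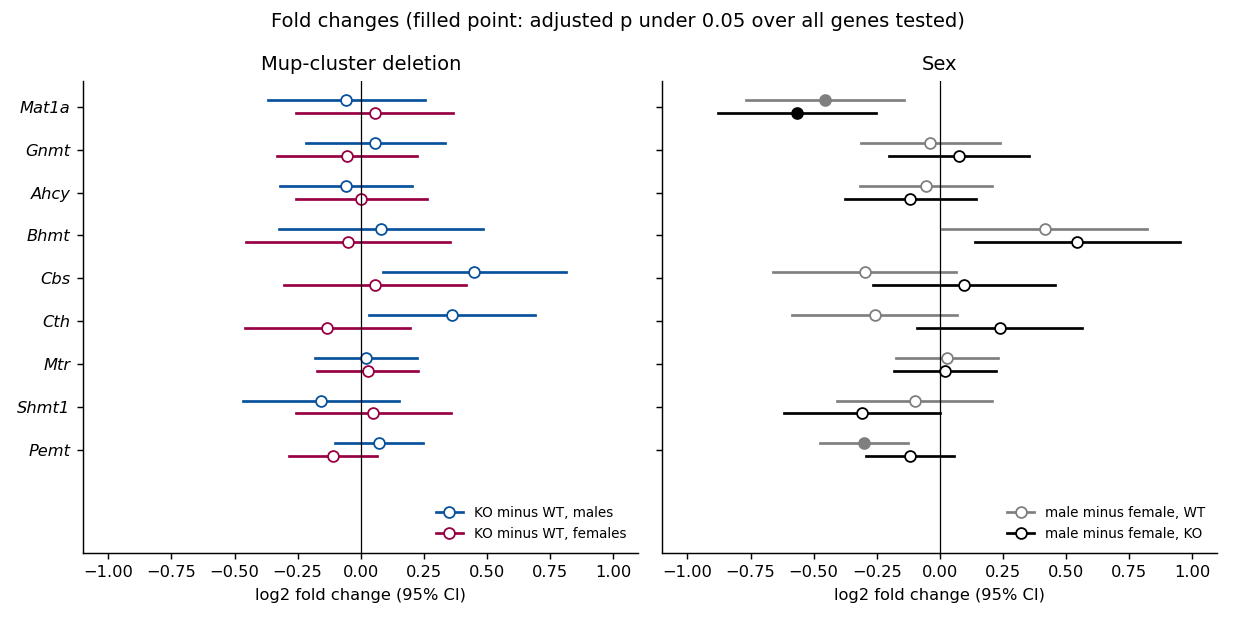
Log2 fold change (horizontal axes) of each member with its 95% confidence interval, for KO minus WT in males and females (left) and for male minus female in WT and KO mice (right), where a filled point marks an adjusted p under 0.05. The filled points are Mat1a in both genotypes and Pemt in WT mice, at -0.45, -0.57 and -0.30, and no point is filled for the deletion.

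Sex was related to the level of Mat1a, and to that of Pemt in WT mice. In WT mice 2 of 9 members were called, both lower in males, against 17.3% of all genes called and 8.81% called lower. In KO mice 1 of 9 was called, lower in males, against 14.4% of all genes and 7.13% called lower. These are counts of 9 genes and lie close to the shares of all genes, so that nothing particular to the members is read from them. The WT comparison shares its mWT and fWT livers with the comparisons of genotype, and the KO comparison its mKO and fKO livers, but the 2 comparisons of sex have no liver in common.

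Mat1a was at 2855, 3354 and 4371 CPM in mWT and at 4101, 4971 and 5708 CPM in fWT. The ranges overlapped through 2 mWT mice above 4101 CPM, but all 6 mWT mice were below the fWT median. The level in males was 0.730 times that in females (95% CI 0.587 to 0.906, log2 fold change -0.45 ± 0.152, edgeR adjusted p = 0.0393). That call was close to the threshold and was lost without any one of mice 2, 3, 4 or 6 of mWT or mice 2, 4, 5 or 6 of fWT, with log2 fold changes of -0.45 to -0.40 and adjusted p of 0.062 to 0.091 in these 8 fits. It was also lost without the filter on low counts (adjusted p = 0.0591) and with the replicate number of the mice as a block in the fit (adjusted p = 0.0587). In KO mice Mat1a was at 2962, 3486 and 3803 CPM in males and at 3403, 4899 and 6851 CPM in females. All 6 mKO mice were below the fKO median, and the level was 0.675 times that in females (95% CI 0.543 to 0.839, log2 fold change -0.57 ± 0.152, adjusted p = 0.0118). This call held without each of the 24 mice in turn, with an adjusted p of 0.0026 to 0.040. Averaged over both genotypes, a contrast added after the data were seen, the log2 fold change was -0.51 ± 0.108 (adjusted p = 7.4e-04).

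Pemt was at 194, 215 and 249 CPM in mWT and at 238, 275 and 295 CPM in fWT. The ranges overlapped, with all 6 mWT mice below the fWT median, and the level in males was 0.811 times that in females (95% CI 0.719 to 0.915, log2 fold change -0.30 ± 0.0848, adjusted p = 0.0138). The call held without each mouse in turn, with an adjusted p of 0.0078 to 0.036. In KO mice Pemt was at 195, 231 and 263 CPM in males and at 214, 257 and 274 CPM in females, a log2 fold change of -0.12 ± 0.0847 (adjusted p = 0.378). That the sex difference was called in one genotype and not in the other does not show that it differed: the difference itself was 0.18 ± 0.120 (adjusted p = 0.880).

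Bhmt had the opposite sign, with higher levels in males. It was at 1296, 1619 and 2457 CPM in mWT and at 840, 1330 and 1688 CPM in fWT, with 5 of 6 mWT mice above the fWT median and a log2 fold change of 0.42 ± 0.196 (unadjusted p = 0.0451, adjusted p = 0.152). In KO mice it was at 1209, 2112 and 2302 CPM in males and at 968, 1275 and 1684 CPM in females, a log2 fold change of 0.55 ± 0.196 (unadjusted p = 0.0106, adjusted p = 0.0659). Neither passed the test, although the value in KO mice did without mouse 1 or 3 of mKO, mouse 4 of fKO or mouse 3 of fWT (adjusted p of 0.027 to 0.048) and in DESeq2 (adjusted p = 0.0300). Averaged over both genotypes Bhmt was called, with a log2 fold change of 0.48 ± 0.139 (adjusted p = 0.0110), beside Pemt at -0.21 ± 0.0599 (adjusted p = 0.0092). By that added contrast 3 of 9 members were called, against 30.4% of all genes. Set against each other within a liver, Bhmt and Mat1a gave a ratio of 0.268 to 0.339 on the TPM scale in mWT and of 0.123 to 0.207 in fWT, with no overlap. In KO mice the ratio was 0.193 to 0.402 in males and 0.118 to 0.214 in females, with a small overlap. This ratio joins 2 genes already seen to differ in opposite directions, so its separation is no further support for a sex difference. The ratio of Bhmt to Cbs did not overlap in WT mice either, at 6.30 to 13.4 in mWT and 3.74 to 6.12 in fWT. In KO mice that ratio overlapped, at 3.96 to 9.90 in males and 3.02 to 9.49 in females.

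The other 6 members did not pass the test between the sexes. Shmt1 came nearest, with a log2 fold change of -0.31 ± 0.150 in KO mice (unadjusted p = 0.0509, adjusted p = 0.178), and without mouse 4 of mKO, the highest of its group at 286 CPM, it was -0.44 with an adjusted p of 0.041. In WT mice Shmt1 was at -0.10 ± 0.150, and at -0.27 without mouse 3 of mWT (adjusted p = 0.164). Cbs and Cth were lower in males than in females among WT mice, at -0.30 ± 0.175 and -0.26 ± 0.159, and higher among KO mice, at 0.096 ± 0.175 and 0.24 ± 0.158, with adjusted p of 0.260 to 0.763. Gnmt, Ahcy and Mtr stayed between -0.12 and 0.075 in both genotypes.

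Markers of other liver cells also differed between the sexes. Kupffer cell markers summed to 63.0 to 128 CPM in mWT, 62.3 to 170 in mKO, 114 to 211 in fWT and 96.2 to 167 in fKO, and 3 of 4 markers were lower in males among WT mice and 0 of 4 among KO mice. Endothelial markers summed to 103 to 123 CPM in mWT, 104 to 131 in mKO, 117 to 160 in fWT and 105 to 162 in fKO, with 2 of 4 and 1 of 4 lower in males. Stellate cell markers summed to 152 to 281 CPM in mWT, 156 to 225 in mKO, 230 to 299 in fWT and 199 to 304 in fKO, with 1 of 4 and 2 of 4 lower. Of the 4 hepatocyte markers 1 was lower in WT males, and 1 was higher and 1 lower in KO males. Over all genes tested 8.81% were called lower in males among WT mice and 7.13% among KO mice. The median log2 fold change of the Kupffer cell markers was -0.79 in WT and -0.40 in KO mice. For the difference between the sexes in the effect of the deletion 0 of these 4 were called. No marker was at 0 throughout a group. The part of these cells in the sex differences of Mat1a, Bhmt and Pemt was not tested, and in RNA from whole liver fewer cells of a type and less RNA per cell cannot be told apart.

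The enzymes around the cycle were described by 7 lists of 66 further genes, of which 64 were tested. With loss of the Mup cluster 0 of 64 were called in males by edgeR, against 0.211% of all genes, and 13 had an unadjusted p under 0.05, against 10.6% of all genes. DESeq2 called 1 of them, Srm, and 139 genes in all. At p under 0.01 there were 6 of 64, against 3.52% of all genes. Srm, the spermidine synthase that uses decarboxylated SAM, was at 14.1 to 25.8 CPM in mWT and at 9.36 to 13.7 CPM in mKO, without overlap, and had a log2 fold change of -0.63 ± 0.181 (edgeR adjusted p = 0.167). Mtrr, the reductase that keeps methionine synthase active, was at 7.66 to 9.68 CPM in mWT and at 5.56 to 7.64 CPM in mKO, also without overlap, at -0.39 ± 0.111 (adjusted p = 0.154). A separation downwards was seen for 0.503% of all genes.

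The other 4 of these genes were higher in mKO. Gclc, the catalytic subunit of the ligase that starts glutathione synthesis from cysteine, had a log2 fold change of 0.51 ± 0.165 and was at 169 to 305 CPM in mWT and 258 to 408 CPM in mKO. Suox, the sulfite oxidase at the end of cysteine breakdown, was at 0.29 ± 0.104 and did not overlap between the groups, with 109 to 155 CPM in mWT and 156 to 183 CPM in mKO. Amt, a part of the glycine cleavage system, was at 0.51 ± 0.179, and Cept1, which joins choline or ethanolamine to diacylglycerol, at 0.32 ± 0.0945. The adjusted p of these 4 was 0.165 to 0.283. All 10 tested genes of sulfur amino acid use after transsulfuration had a median log2 fold change of 0.11 in males, with 9 of 10 above 0, against a median of -0.0021 over all genes. Of all 12330 genes, 6096 were above 0 in males. In females the same list had a median of 0.11 too, with 6 of 10 above 0, against a median of -0.0026 over all genes. The direction of 9 of 10 in males is a description, since none of the 10 was called. In females 0 of 64 were called by edgeR or DESeq2, 4 had an unadjusted p under 0.05, against 4.87% of all genes, and 0 had one under 0.01, against 0.876%. For the difference between the sexes in the effect of the deletion 0 of 64 were called by either tool and 4 had an unadjusted p under 0.05, against 5.96% of all genes.

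Between the sexes 17 of 64 were called in WT mice, 11 higher and 6 lower in males, against 17.3% of all genes, and 18 of 64 in KO mice, 13 higher and 5 lower, against 14.4%. Of these, 13 were called in both genotypes with the same direction, which is 76.5% of those called in WT and 72.2% of those called in KO mice. Over all genes tested the shares were 49.4% and 59.4%. The counts include Mthfd2 in both genotypes and Psat1 in WT mice, which passed the filter on low counts mainly through the males. These calls are no independent support for a sex difference. Among the 9 members Mat1a was the one called in both.

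Small-molecule methyltransferases, which like Gnmt draw on SAM, held the largest share of called genes of the 7 lists, 4 of 7 in each genotype. Tpmt, which methylates thiopurines, was at 69.5 to 85.2 CPM in mWT and at 26.8 to 36.9 CPM in fWT, a log2 fold change of 1.26 ± 0.0923 (adjusted p = 9.7e-11), and at 0.98 ± 0.0917 in KO mice. Hnmt, which inactivates histamine, was higher in males at 0.75 ± 0.153 and 0.45 ± 0.152. As3mt, which methylates arsenic, was lower in males, as Mat1a was, at -0.39 ± 0.106 and -0.36 ± 0.105. In these pairs of values WT mice are given first.

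The list of the CDP-choline and CDP-ethanolamine route held 3 called genes of 7 in WT and 2 in KO mice. Of this route the CDP-choline branch is the alternative to Pemt for making phosphatidylcholine. Chpt1, the cholinephosphotransferase, was higher in males at 0.79 ± 0.132 in both genotypes, and Etnk1, ethanolamine kinase, at 0.56 ± 0.0682 and 0.42 ± 0.0680. Cept1 was lower in males at -0.47 ± 0.0944 in WT mice. In the folate cycle 3 of 14 genes were called in WT and 4 in KO mice. Mthfd2, a mitochondrial folate enzyme, was higher in males at 1.26 ± 0.271 and 1.12 ± 0.265, from levels of no more than 2.12 CPM. Its medians were 0.576 CPM in fWT and 0.556 CPM in fKO, under the filter of 0.66 CPM, which it passed mainly through the males. The calls of Mthfd2 are thus no independent support for a sex difference. Ggh, which trims polyglutamate from folate, was lower at -0.53 ± 0.114 and -0.39 ± 0.112, and Mthfs at -0.31 ± 0.108 and -0.41 ± 0.107. Ftcd, which takes one-carbon units from histidine breakdown, was called higher in KO males at 0.42 ± 0.0874.

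In SAM synthesis, SAH removal and methionine salvage 2 of 13 genes were called in each genotype, and Mat2a was not among them. Ahcyl2, a relative of Ahcy, was higher in males at 0.52 ± 0.0973 and 0.53 ± 0.0970, and Apip, of the salvage pathway, at 0.36 ± 0.0886 and 0.33 ± 0.0880. In remethylation and the betaine route 1 of 7 was called in WT and 2 in KO mice. Aldh7a1, which can oxidise betaine aldehyde, was higher in males at 0.33 ± 0.0808 and 0.47 ± 0.0809, and Mtrr was lower in KO males at -0.34 ± 0.110. Bhmt2, the neighbour and relative of Bhmt, had 0.035 ± 0.0924 and -0.024 ± 0.0923 and was not called.

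For serine synthesis and glycine cleavage 2 of 6 genes were called in WT mice, Psat1 at 1.02 ± 0.299 and Psph at 0.58 ± 0.145, both higher in males and both enzymes of serine synthesis, and 0 of 6 in KO mice, where 3 had an unadjusted p under 0.05. Psat1 was at 0.586 to 1.31 CPM in mWT, at 0.165 to 0.623 CPM in fWT and at no more than 0.627 CPM in fKO. It passed the filter of 0.66 CPM through the males, so its call is no independent support for a sex difference. Of sulfur amino acid use after transsulfuration 2 of 10 were called in WT and 4 in KO mice. Sqor, which oxidises sulfide, was lower in males at -0.28 in both genotypes (SE 0.0773 and 0.0772), and Cdo1, the cysteine dioxygenase, was lower in WT males at -0.35 ± 0.120. Ethe1, Gclc and Mpst were higher in KO males at 0.80 ± 0.247, 0.59 ± 0.165 and 0.43 ± 0.0999.

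**Figure D3:**
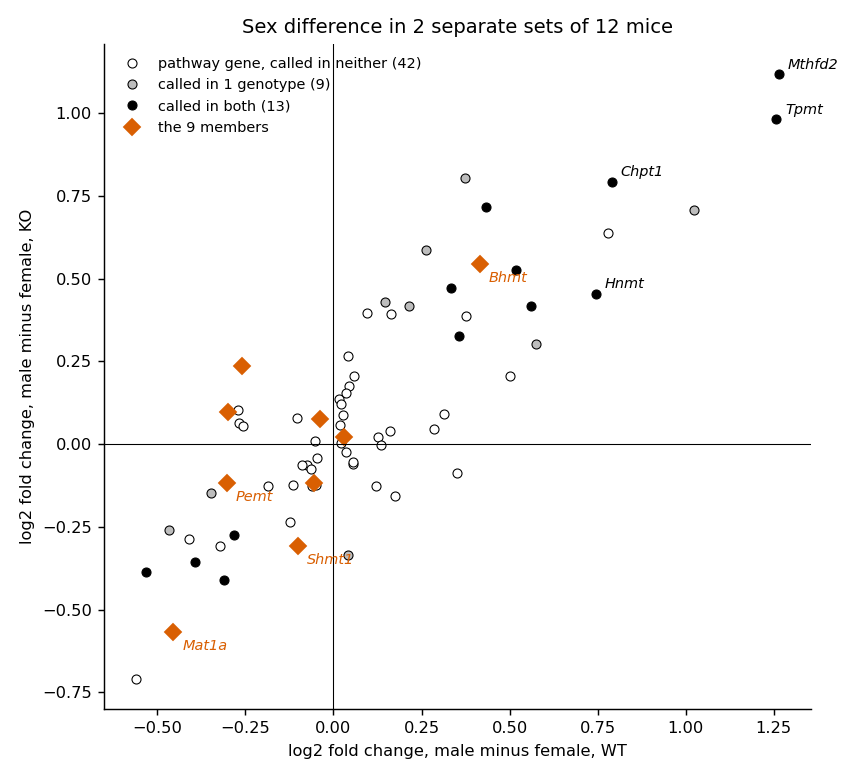
Log2 fold change of males minus females in WT mice (horizontal axis) and in KO mice (vertical axis) for the 64 pathway genes tested (circles, shaded by the number of genotypes in which they were called) and the 9 members (diamonds). Mthfd2 and Tpmt lie at the upper right, Mat1a at the lower left, and the 13 genes called in both genotypes all have the same sign on both axes. Mthfd2, among these 13, passed the filter on low counts mainly through the males.

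Within groups some of the members, Mat1a, Gnmt, Ahcy, Bhmt and Cth, varied together in pairs from mouse to mouse. After the group means were taken out of log2 CPM, 23 of the 36 pairs of members had a Pearson's r above 0 over the 24 mice and 13 below 0. By a two-sided permutation test within groups (100000 permutations) 6 pairs had an adjusted p under 0.05 over the 36 pairs, all with r above 0. No share over pairs of all genes tested is given beside these counts, so nothing particular to the members is read from them. Mat1a and Ahcy were the closest pair, with r = 0.85 (permutation p = 0.00016, adjusted p = 0.0029) and Spearman's rho = 0.86 (permutation p = 0.00013, adjusted p = 0.0023). Without the 2 mice farthest from the median of Mat1a, r was 0.81, and within the single groups it was 0.64 in mWT, 0.61 in mKO, 0.88 in fWT and 0.94 in fKO.

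Gnmt and Bhmt were the second pair, with r = 0.82 (permutation p = 1e-05, the smallest these permutations can give, adjusted p = 0.00036) and rho = 0.81 with the same p. Without the 2 farthest mice r was 0.79, and it was 0.74 to 0.91 within the 4 groups. The mKO livers low in Bhmt, mice 1 and 3, were also the lowest of their group in Gnmt, at 624 and 705 CPM. Gnmt also varied with Cth, at r = 0.70 (permutation p = 0.00061, adjusted p = 0.0049), rho = 0.66 (permutation p = 0.00107, adjusted p = 0.0077) and r = 0.62 without the 2 farthest mice. Within groups that pair ranged from 0.27 in mWT to 0.98 in fKO. Gnmt with Ahcy gave r = 0.49 (permutation p = 0.0119, adjusted p = 0.0576) and rho = 0.57 (permutation p = 0.00657, adjusted p = 0.0296). With Shmt1 it gave r = 0.51 (permutation p = 0.0149, adjusted p = 0.0588) and rho = 0.55 (permutation p = 0.00905, adjusted p = 0.0362), with r = -0.27 in mWT. These pairs passed by rank only.

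The 3 further pairs that passed by r all involved Bhmt. With Mat1a it gave r = 0.58 and rho = 0.65 (permutation p = 0.00064 and 0.00038, adjusted p = 0.0049 and 0.0044), r = 0.67 without the 2 farthest mice, and 0.18 in mKO against 0.76 to 0.95 in the other 3 groups. With Ahcy it gave r = 0.57 and rho = 0.65 (permutation p = 0.00068 and 0.00049, adjusted p = 0.0049 and 0.0044), with r = 0.58 without the 2 farthest mice. With Cth it gave r = 0.56 and rho = 0.59 (permutation p = 0.00332 and 0.00388, adjusted p = 0.0199 and 0.0233), with r = 0.57 without the 2 farthest. Bhmt was thus higher in the livers with more Mat1a although the sexes differed in opposite directions for these genes, and with the group means left in their r was -0.046.

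Mtr went the other way. All 8 of its correlations with the other members were below 0, from -0.53 with Pemt to -0.13 with Mat1a. With Pemt, r = -0.53 (permutation p = 0.0128, adjusted p = 0.0576) did not pass and rho = -0.59 (permutation p = 0.00492, adjusted p = 0.0253) did. Without the 2 farthest mice r was -0.59, and it was -0.65 to -0.39 within the 4 groups. Cbs was negatively related to Mat1a at r = -0.38 (permutation p = 0.150, adjusted p = 0.251) and to Ahcy at r = -0.43 (permutation p = 0.0947, adjusted p = 0.201), neither past the threshold, and the latter was -0.15 without the 2 farthest mice. The points of all these relations share their libraries. With the log2 library total, group means taken out, r was -0.46 for Mat1a, -0.41 for Bhmt, -0.30 for Gnmt, -0.28 for Ahcy and -0.24 for Cth. These are the members of the 6 pairs that passed by r. For the others it was -0.18 for Pemt, -0.010 for Mtr, 0.0020 for Shmt1 and 0.016 for Cbs. The part of library size in the pairs was not tested.

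**Figure D4:**
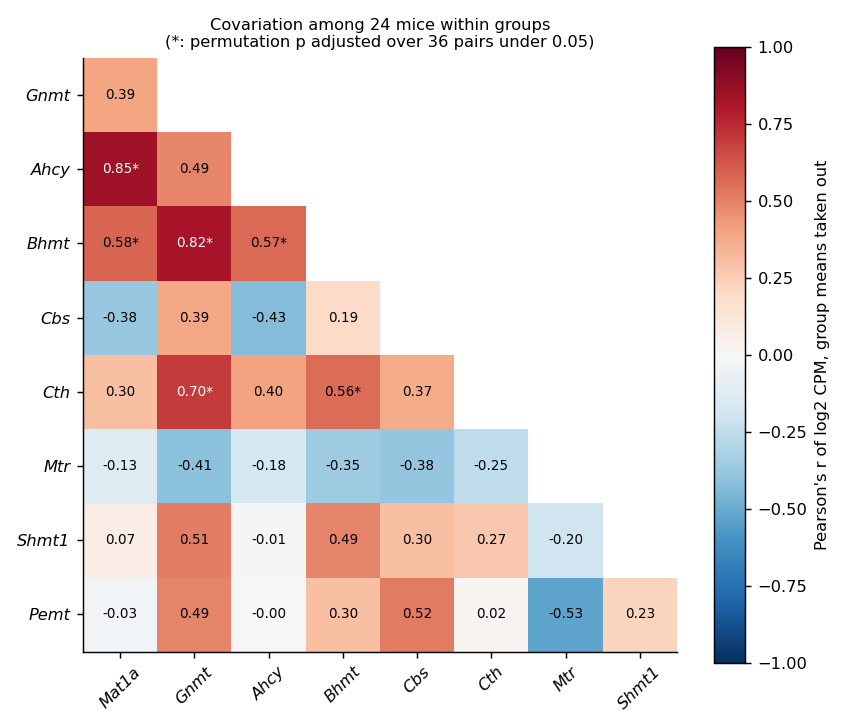
Pearson's r (colour scale and printed values) of log2 CPM between each pair of members over 24 mice with the group means taken out, where an asterisk marks an adjusted permutation p under 0.05. The 6 marked pairs join Mat1a, Gnmt, Ahcy, Bhmt and Cth, and the row and column of Mtr are below 0 throughout.

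**Figure D5:**
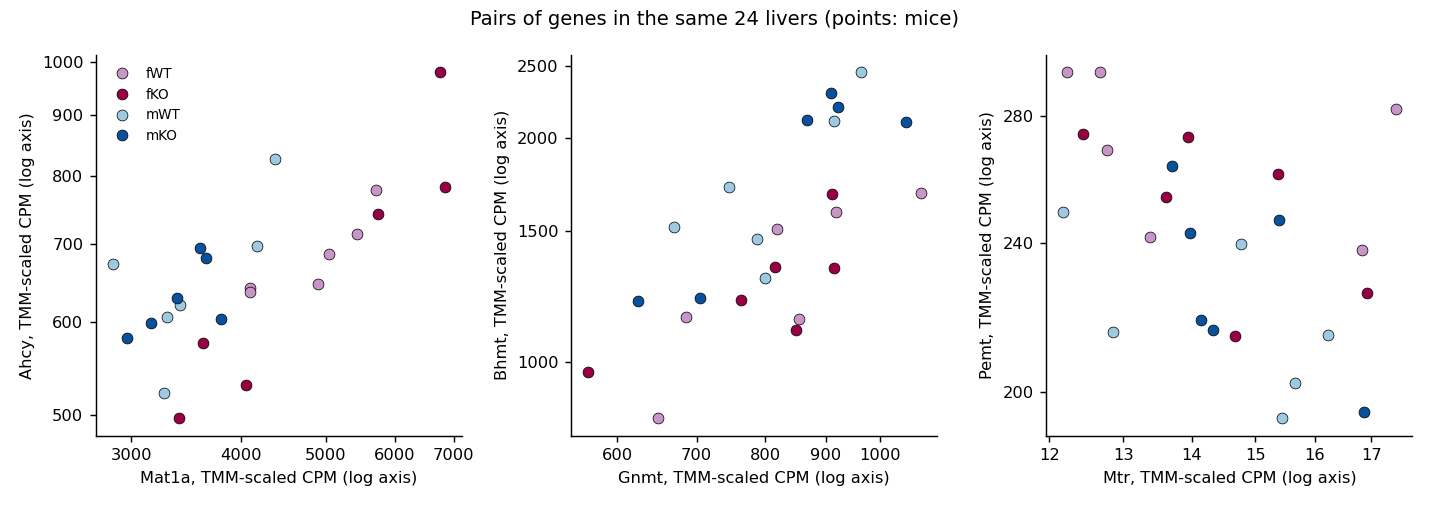
TMM-scaled CPM of Ahcy against Mat1a, Bhmt against Gnmt and Pemt against Mtr in the 24 livers (points coloured by group, log axes). The first 2 pairs rise together within each group, with Mat1a from 2855 to 6851 CPM and Gnmt from 566 to 1082 CPM, and the third slopes downwards.

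The gene outside the list most like each member was sought among all genes tested, by Pearson's r over the 24 mice, as a description without a test. With group means taken out these were Gpt2 for Mat1a (r = 0.90), Aldh1l1 for Gnmt (0.89), Coa6 for Ahcy (0.88), Bhmt2 for Bhmt (0.88), Gm49342 for Cbs (0.94), Gls2 for Cth (0.82), Txlng for Mtr (0.79), Slc22a4 for Shmt1 (0.84) and Fbxw9 for Pemt (0.91). With the group means kept they were As3mt for Mat1a (0.89), Pafah2 for Bhmt (0.82), Hgd for Cth (0.77), Phf3 for Mtr (0.71), Slc6a12 for Shmt1 (0.84) and Tmem94 for Pemt (0.86), while Gnmt, Ahcy and Cbs kept Aldh1l1, Coa6 and Gm49342. Aldh1l1, which oxidises formyl-folate, Bhmt2 and As3mt were also on the pathway lists.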

How the data were processed

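Liver mRNA from 24 mice, 6 in each of 4 groups taken from the labels, was sequenced from stranded TruSeq libraries. Per the labels, the authors made the deposited values with bcl2fastq 2.19, fastp 0.20 and STAR 2.7a on GRCm38.p6, counted reads per gene with featureCounts and tested with edgeR 3.28.1. The deposited files hold raw read counts per Ensembl gene. The strand setting and the treatment of reads with several matches are not given in the sources used here, so reads of near-identical copies or of overlapping genes may be split or lost.

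Here, gene names and exon lengths came from GENCODE M21 (25712 of 25746 identifiers matched). A gene was kept if 6 or more of the 24 libraries reached 0.66 CPM. The counts were fitted with 1 mean per group in edgeR 4.0.16 (TMM scaling, robust quasi-likelihood F test) under R 4.3.3, with Benjamini-Hochberg adjustment over all genes tested. The p-values measure the spread between mice. TPM were computed from the counts and exon lengths. Correlations used log2 CPM with a prior count of 2. Stretches shared with other transcripts (at least 50 bases and 90% identity) were found with blastn 2.17.0. Promoter sequences came from RefSeq (GRCm38.p6).

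The named genes were the 9 members, the pathway genes called (at most 4 by size per list and contrast) or, for the deletion, with an unadjusted p under 0.01, and the 1 gene most like each member. Pathway genes beyond that number, or not called, were named after their values were seen. The values of 1 called methyltransferase are not reported here. The members and lists were chosen with earlier results of these data known. Alternatives tried were DESeq2 1.42.0, its size factors in edgeR, no filter on low counts, no Mup genes, non-robust dispersions, the libraries of each contrast alone, a replicate block and the fit without each mouse. The test was checked on simulated data with changes set in mKO. Of genes with a log2 change of 0.5, 45% were called for the deletion in males and 16% for the difference between the sexes. At a log2 change of 1 the shares were 97% and 84%. The simulation changed 100 genes at each size, drew genes independently and set their spread by the trend over all genes. The real comparison in males had 26 calls in all, so for real genes the shares can be lower. A change near 0.5, and possibly a larger one, can thus be missed.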

Additional observations from a re-analysis of the deposited data

Results flagged for a closer look

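In each of the 36 combinations of member and group, the highest and the lowest mouse were compared with the nearest of the others, and 2 stood apart by Dixon's criterion for 6 values. Chance alone gives about 1 such value in 20 groups. Shmt1 in mouse 3 of mWT was at 344.03 CPM, with the next mWT mouse at 210.31 CPM, a gap of 0.869 of the range. Cth in mouse 5 of fKO was at 257.24 CPM, with the next fKO mouse at 454.4 CPM, a gap of 0.651 of the range.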

How the results depend on the processing

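No member was called for loss of the Mup cluster, or for the difference of that effect between the sexes, under any alternative run. Among the pathway genes DESeq2 called 1 for the deletion in males, and no other alternative called any for the deletion or for that difference. Between the sexes in WT mice, 1 member (Pemt) and not 2 was called without the filter on low counts and in the fit with the replicate block, where Mat1a had adjusted p of 0.0591 and 0.0587. In KO mice DESeq2 called 2 members, Bhmt beside Mat1a. The fits without each mouse in turn called 1 to 2 members in WT mice and 1 to 2 in KO mice, and 14 to 20 and 14 to 19 pathway genes. Same-numbered mice of different groups had correlations of their deviations from -0.335 to 0.253. Mice of different numbers were not compared in this way, so whether the replicate numbers pair the mice was not tested. The replicate block turned the sign of 1 value, Ahcy in females, to -0.014 (0.0024 without it). Of 306 single values under the other alternatives, 302 kept direction and side of the threshold, as did 1012 of 1080 without a mouse. There 55 changed sign, none of them called. Their lowest and highest log2 values for the deletion in males were -0.11 and 0.010 for Mat1a, -0.014 and 0.13 for Gnmt, -0.12 and 0.017 for Ahcy, -0.025 and 0.055 for Mtr and -0.29 and 0.010 for Shmt1. For the deletion in females they were -0.049 and 0.15 for Mat1a, -0.12 and 0.033 for Gnmt, -0.12 and 0.079 for Ahcy, -0.15 and 0.032 for Bhmt, -0.051 and 0.17 for Cbs, -0.022 and 0.093 for Mtr and -0.031 and 0.10 for Shmt1. For sex in WT mice they were -0.10 and 0.051 for Gnmt, -0.13 and 0.0022 for Ahcy and -0.012 and 0.093 for Mtr. For sex in KO mice they were -0.011 and 0.15 for Gnmt, -0.19 and 0.0084 for Ahcy, -0.0026 and 0.20 for Cbs and -0.021 and 0.070 for Mtr. For the difference of the effects they were -0.14 and 0.066 for Ahcy and -0.074 and 0.042 for Mtr. The cause of these changes was not tested. Mtr, at 12.2 to 17.5 CPM, rests on the fewest reads.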
